A study of Nannospalax ehrenbergi and Mus musculus with 25 samples.

Results

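The 9 genes described here belong to nerve, Schwann cell and the neuromuscular junction: Prph, Nefl, Nefm, Chrna1, Chrne, Musk, Rapsn, Ncam1 and S100b. They were chosen by name, with results of these libraries already known, and all 9 were found among 27988 genes of the Spalax table and 47593 genes of the mouse table. Prph entered because its level separated uninjected muscle of untreated from that of tumor-bearing Spalax, so that contrast is given here as a description only.

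RNA-seq was made from neck muscle and tumors of Spalax (blind mole rats caught in the field) and of C57BL/6 mice, in 25 libraries. All treated animals had received a single subcutaneous dose of 3-methylcholanthrene (3MCA), a carcinogen, in the left flank of the neck. In tumor-bearing animals a library of the injected side (IS) was made from the tumor, and one of the uninjected side (UIS) from muscle.

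Untreated Spalax controls were 4 females, with muscle from the uninjected side. Tolerant Spalax were 3 males and 1 female given 1 mg of 3MCA in 500 µl that carried no tumor 18 or 30 months later, and their muscle came from the injected side. Granulomas, benign growths, were taken from females 600 and 976 at 14 and 16 months after the same dose, and fibrosarcomas, malignant growths, from female 2240 and male 2230 at 18 and 30 months, each with its UIS muscle. The age of field-caught Spalax is only an estimate. For treated animals it was about 2 years for a younger set and 10 years or more for an older set. No age is given for the untreated Spalax controls. The mice were males of 3 to 4 months, namely 3 untreated controls (M1, M2, M5) and 3 animals (1019, 1023, 512) given 200 µg in 200 µl, whose fibrosarcomas were taken after 14, 12 and 11 weeks. Controls and tolerant animals carried dual sequencing indexes and tumor-bearing animals single ones, so index and tumor status cannot be told apart. Side, treatment and, in large part, sex differ together between Spalax control and tolerant muscle.

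A motor axon ends on a muscle fibre at the neuromuscular junction, where acetylcholine opens receptors that are packed densely under the nerve ending. Peripherin and the neurofilaments are intermediate filaments that fill axons. Agrin released by the nerve activates the kinase MuSK, rapsyn then clusters the receptors, and the epsilon subunit replaces the fetal gamma subunit as the junction matures. Schwann cells wrap the axons, and a muscle fibre that loses its nerve is known to express receptor subunits, myogenin and NCAM along its length.

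Prph, Nefl and Nefm encode related proteins, so the extent to which a read could belong to more than 1 of them was examined. In GRCm38 (GENCODE vM21) Prph lies on chromosome 15 from 99055174 to 99058978, Nefl on chromosome 14 from 68083863 to 68089095 and Nefm on chromosome 14 from 68082590 to 68124846. The longest exact run shared by any 2 of their mouse coding sequences was 35 bases (Prph and Nefm), under the 101 cycles of sequencing. Chrna1 and Chrne shared at most 12. Nefl and Nefm are annotated on opposite strands with overlapping exons: 32.8% of the exon bases of Nefl lie under Nefm and 19.2% of those of Nefm under Nefl. The strand setting of the counting was not given in the sources used here, so reads of that overlap cannot be assigned to 1 of the 2 genes with certainty. Chrna1 (chromosome 2, 73563215 to 73580338) and Rapsn (91035620 to 91045729) lie on the same chromosome. Chrne lies on chromosome 11 from 70614883 to 70619216, Musk on chromosome 4 from 58285960 to 58374303, Ncam1 on chromosome 9 from 49502136 to 49798925 and S100b on chromosome 10 from 76253853 to 76261159. For these members and Prph at most 4.81% of exon bases (Ncam1) lie under another mouse gene.

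Library depth was 17025447 to 23386729 reads in Spalax and 22143060 to 31179183 in mouse, and 1 read was worth 0.517 to 1.44 normalised counts, the deposited unit (reads divided by a size factor per library). Skeletal muscle was checked by fibre genes such as Ckm and Acta1, 12 in Spalax and 13 in mouse, whose summed level was 1061818 to 3891896 in the Spalax muscle libraries and 802 to 7098 in Spalax tumors. In mouse that sum was 1460985 to 5618397 in muscle and 222 to 67107 in tumors, the highest tumor being that of animal 512. Fewer fibres and less RNA per fibre cannot be told apart in bulk tissue. Granuloma UIS 976, tolerant 2375 and mouse UIS 512 carried high levels of the muscle atrophy ligases Trim63 (36366, 55174 and 236435 normalised counts) and Fbxo32 (38722, 24693 and 178089). Tolerant 2251 held 200903 normalised counts summed over 7 fibroblast genes, against 7546 as the lowest tolerant library.

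Prph, the gene for peripherin, was lowest in the muscle of tumor-bearing Spalax and highest in that of untreated Spalax. Control libraries 1042, 1075, 2095 and 6038 held 189.9, 273, 179.6 and 130.3 normalised counts. Tolerant libraries 2251, 2261, 2218 and 2375 held 104, 104, 141 and 48.2. UIS libraries held 33.8 and 30.6 in granuloma animals 600 and 976, and 32.7 and 73.9 in fibrosarcoma animals 2240 and 2230. All 4 UIS libraries lay under all 4 controls, while the tolerant libraries overlapped with both groups. These are the values Prph was chosen on.

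In that contrast control averaged 193 ± 59.3 (SD, n = 4) and UIS 42.8, a ratio of 4.52 and a difference of -2.20 (SE 0.36) on the log2 scale of value plus 1. Prph was the 1 member of 7 tested whose UIS libraries all lay under the controls, where 6.20% of all 13909 genes tested did so. Limma called 0% of all genes at an adjusted p of at most 0.05. An unadjusted p under 0.05 was found for 2315 genes, with 0 called by edgeR and 516 by DESeq2. The other members overlapped between the groups. Between control and tolerant muscle Prph differed by -1.0 (log2, SE 0.37, limma adjusted p = 0.90), and between tolerant and UIS muscle by -1.20 (SE 0.44, limma adjusted p = 0.88). These comparisons share the control or UIS libraries with the first. Limma called 0 of 7 tested members between control and tolerant, beside 0% of 14020 genes (733 at an unadjusted p under 0.05, 0 called by edgeR and 60 by DESeq2). It called 0 of 7 between tolerant and UIS, beside 0.00713% of 14029 genes (718 at an unadjusted p under 0.05, 1 called by edgeR and 38 by DESeq2). Nefl and Nefm were too low to be tested there.

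**Figure D1:**
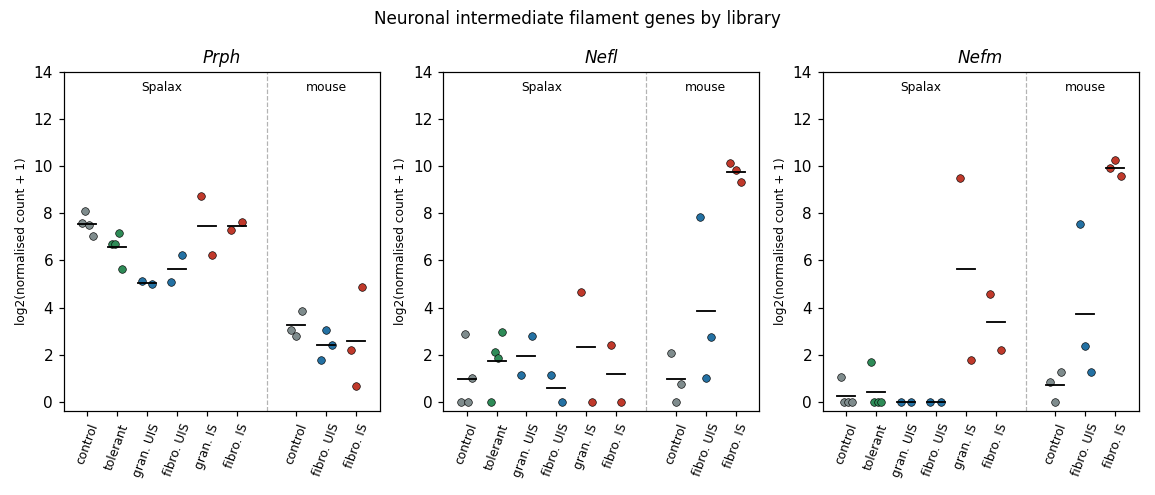
Level of Prph, Nefl and Nefm in each library (points) with the group mean of the log2 values (bars), as log2 of the normalised count plus 1 on a linear axis, for 6 Spalax groups and 3 mouse groups. Prph lies between 30.6 and 273 normalised counts in all 12 Spalax muscle libraries and at most at 13.5 in mouse muscle, whereas Nefl and Nefm rise over 600 in each mouse tumor.

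Over the 12 Spalax muscle libraries, the 5 of 14435 genes whose centred log2 profiles were nearest to that of Prph were Sncg, B3gat1, Igfbp2, Prkcdbp and LOC103748521, with root mean square differences of 0.39, 0.44, 0.47, 0.49 and 0.50. Sncg encodes gamma-synuclein, a protein of peripheral neurons. It held 127 to 239 normalised counts in control, 44.2 to 88.7 in tolerant and 35 to 101 in UIS libraries. B3gat1 makes the HNK-1 carbohydrate found on nerve, and held 7.48 to 23.4, 5.36 to 17.2 and 1.21 to 8.53 in the same groups. Igfbp2 held 90.5 to 232, 56.3 to 131 and 17.0 to 44.1 in that order. Prkcdbp held 582 to 910, 240 to 944 and 153 to 419, and LOC103748521 held 1902 to 2768, 715 to 1324 and 521 to 1015. Whether the likeness reflects nerve or another tissue was not tested. This likeness was ranked over libraries that share the group differences Prph was chosen on.

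Nerve-related genes were followed in the same 3 muscle groups through lists. Of 15 axon and neuron cytoskeleton genes 9 were tested between control and UIS, with a median difference of -0.59 on the log2 scale, beside -0.03 over all genes tested. Of 23 Schwann and myelin genes 16 were tested, with a median of -1.14. S100b held 862, 538, 251 and 429.7 in the 4 controls, 345, 612, 611 and 224 in tolerant 2251, 2261, 2218 and 2375, and 252, 1075, 278 and 463 in UIS animals 600, 976, 2240 and 2230. Limma called 0 genes of either list in this contrast. The 5 motor neuron genes counted in Spalax, among them the acetylcholine enzyme Chat and its vesicle transporter Slc18a3, summed to at most 8.99 normalised counts in any control, tolerant or UIS library of Spalax. In mouse, Chat and Slc18a3 were at 0 in every library, controls included. The motor neuron list therefore cannot show a difference in nerve between groups. Between Spalax control and UIS the 8 adipocyte genes had a median of -1.46 and the fibroblast genes one of -0.69. The part of these cell types in the level of Prph was not tested.

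In Spalax tumors Prph held 419.5 and 74.3 normalised counts in granulomas 600 and 976, and 157 and 199 in fibrosarcomas 2240 and 2230. Against the UIS muscle of the same animals the log2 difference was 2.42 (SE 0.95) in granuloma and 1.82 (SE 0.55) in fibrosarcoma. The low UIS values are among those Prph was chosen on, so these differences are a description with no test. The 4 tumors averaged 213 ± 147 (SD, n = 4) and overlapped with the controls at 130.3 to 273, and granuloma 976 lay under every control. Mouse Prph stayed low, at 7.33, 6.03 and 13.5 in controls, 2.42, 7.22 and 4.32 in UIS muscle and 3.62, 0.593 and 27.9 in fibrosarcomas 1019, 1023 and 512. It did not pass the filter on low values in mouse.

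Nefl and Nefm, the light and medium neurofilament subunits, were near 0 in muscle of both species and high in every mouse fibrosarcoma. Nefl held 1111, 906 and 637 normalised counts in mouse tumors 1019, 1023 and 512, and Nefm 974, 1222 and 762. Mouse controls held at most 3.26 of Nefl and 1.42 of Nefm. In UIS muscle of animals 1019, 1023 and 512, Nefl stood at 227, 1.03 and 5.76 and Nefm at 189, 4.13 and 1.44. UIS 1019 stands apart from all other muscle, though below every tumor.

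Against UIS, Nefl rose by 5.88 on the log2 scale (SE 1.63, limma adjusted p = 0.027) and Nefm by 6.18 (SE 1.55, limma adjusted p = 0.019), with each higher in 3 of 3 animals. The muscle of animal 1019 held 20.5% of the Nefl and 19.4% of the Nefm level of its own tumor, against at most 0.903% in the 2 other animals. Other genes high in that tumor showed the same in UIS 1019, where Gap43 reached 21.8%, Tubb3 13.1%, Thy1 22.3% and Sox9 45.2% of the tumor level. Their part in the result was not tested. The calls of both genes were lost with edgeR (adjusted p = 0.11 and 0.079) and with both libraries of animal 512 left out (0.11 and 0.071). Without IS 1019, UIS 1023 or IS 1023 alone both calls were lost as well, and that of Nefl also without UIS or IS 512, with adjusted p of up to 0.078, whereas without UIS 1019 adjusted p fell to 0.0020 for Nefl and 0.0015 for Nefm. Scaled to exon length in mouse tumors, Nefl stood at 19.5 ± 6.01 (SD, n = 3) and Nefm at 12.6 ± 2.73 RPKM (reads per kilobase of exon, scaled to library depth), beside 0.395 ± 0.546 of Prph.

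Spalax tumors differed from each other in Nefm. Granuloma 600 held 714 normalised counts of Nefm and 24.0 of Nefl, granuloma 976 held 2.42 and 0, fibrosarcoma 2240 held 22.7 and 4.30, and fibrosarcoma 2230 held 3.60 and 0. In Spalax muscle Nefm did not exceed 2.25 and Nefl 6.70. Neither gene passed the filter on low values in a Spalax tumor against UIS, and the high Nefm of granuloma 600 rests on 1 animal.

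Other axon genes were tested beside them. In mouse tumors 5 of 9 tested axon and cytoskeleton genes rose and 2 fell, beside 22.8% and 22.3% of all genes, with a list median of 1.59 (log2) beside 0.11 over all genes. Thy1 of this list also stands in the fibroblast list, so its level is not particular to axons. It held 579, 86.6 and 23.0 normalised counts in UIS muscle of animals 1019, 1023 and 512, and 2595, 4876 and 1831 in their tumors. Gap43, a growth cone protein, rose by 6.47 (SE 1.92, limma adjusted p = 0.033) and Tubb3, the neuronal beta-tubulin, by 6.11 (SE 1.42, adjusted p = 0.015). Like Nefl and Nefm, both passed the filter on low values only through the tumors. Mapt, the axonal protein tau that muscle also expresses, fell by 6.35 (SE 0.63, 0.0016). The list was uneven: Tubb3 held 320.3 to 555 normalised counts in mouse tumors, whereas the RNA-binding protein gene Elavl4 held at most 7.75 and the filament gene Ina at most 2.63. The 6 motor neuron genes summed to at most 6.20 there. In Spalax, 2 of 12 tested genes rose and 2 fell in granuloma (median 0.61), beside 11.7% and 12.6% of all genes. In fibrosarcoma 2 of 10 rose and 2 fell (median 0.13), beside 17.4% and 19.0%. Map1b rose in both, by 4.52 (SE 0.84, limma adjusted p = 0.021) and 3.55 (SE 0.58, 0.015). Sncg, the gene nearest to Prph in muscle, fell by 3.56 in fibrosarcoma (SE 0.70, limma adjusted p = 0.022).

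**Figure D2:**
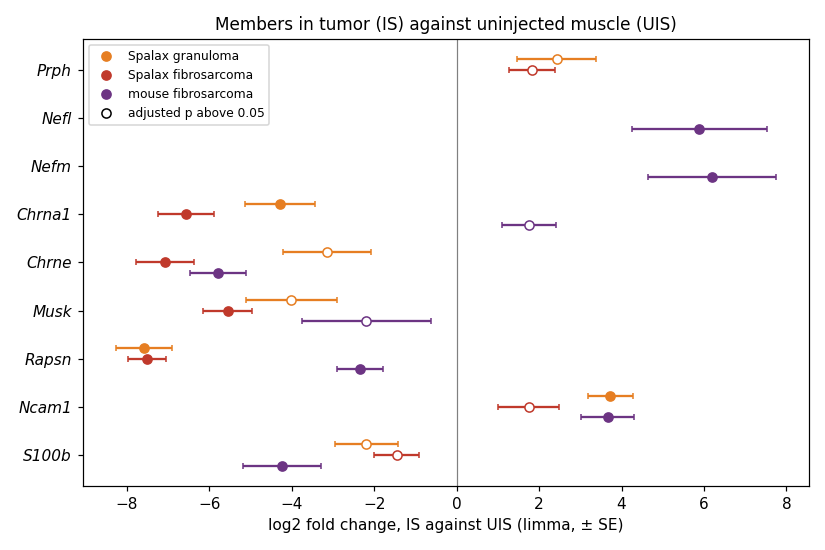
Log2 fold change (points) and its standard error (bars) of IS against UIS for the members tested in Spalax granuloma, Spalax fibrosarcoma and mouse fibrosarcoma, with filled points for a limma adjusted p of at most 0.05. Rapsn lies at -7.59, -7.51 and -2.34, and all 3 points are filled, while Chrna1 lies on opposite sides of 0 in Spalax and mouse. The Spalax points of Prph rest on the UIS libraries it was chosen on.

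Among the 7 members tested in Spalax granuloma, Prph included, limma called 1 higher, beside 11.7% of 14735 genes, and 2 lower, beside 12.6%. In Spalax fibrosarcoma it called 0 of 7 higher, beside 17.4% of 14696 genes, and 4 lower, beside 19.0%. The 4 lower members, Chrna1, Chrne, Musk and Rapsn, passed the filter on low values only through UIS muscle. The same holds for Chrna1 and Rapsn, the 2 lower members in granuloma. Nefm, which reached the filter value in only 1 tumor of each Spalax type, was not tested. The counts of lower and higher members in Spalax therefore depend on the filter. In mouse fibrosarcoma 3 of 8 were called higher, beside 22.8% of 15220 genes, and 3 lower, beside 22.3%. Of these, Nefl and Nefm passed the filter only through the tumors, and Chrne and S100b only through UIS muscle. The shares over all genes come from the same filter. Scaling by total reads moved the median change of all genes by 0.75 in granuloma, 0.83 in Spalax fibrosarcoma and 1.10 in mouse fibrosarcoma, and by -0.27 to 0.12 in the other comparisons. The calls over all genes then ran from 1718 higher and 1863 lower to 3418 and 1123 in granuloma, from 2550 and 2789 to 5285 and 1654 in Spalax fibrosarcoma, and from 3469 and 3401 to 7935 and 1641 in mouse.

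Chrna1, the alpha subunit of the muscle acetylcholine receptor, was at or near 0 in Spalax tumors and high in mouse tumors. Spalax controls 1042, 1075, 2095 and 6038 held 193, 131, 138 and 434 normalised counts, and tolerant 2251, 2261, 2218 and 2375 held 105, 222, 67.4 and 60.3. The groups overlapped, and the difference was -0.99 (log2, SE 0.50, limma adjusted p = 0.92). In tumor-bearing Spalax it held 76.0 and 57.7 normalised counts in granuloma UIS 600 and 976, and 4.36 and 1.21 in the granulomas. UIS muscle of fibrosarcoma animals 2240 and 2230 held 58.2 and 152, and both fibrosarcomas were at 0. Chrna1 fell by 4.29 in granuloma (log2, SE 0.85, limma adjusted p = 0.024) and the change was -6.57 in fibrosarcoma (SE 0.68, 0.0058), where at the floor of 3 reads in each tumor library the mean was at least 57.7-fold lower.

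In mouse, Chrna1 held 320.2, 353 and 304 normalised counts in controls and 457, 376 and 674 in UIS muscle of animals 1019, 1023 and 512. The tumors of the same animals held 773, 1264 and 4628. Every tumor lay above every muscle library, and each above its own UIS. The difference was 1.76 on the log2 scale (SE 0.66) and did not pass (limma adjusted p = 0.068), but passed with the animal as a block (0.031), and over all alternatives the adjusted p was 0.0091 to 0.17. With both libraries of animal 512 left out it was 1.25 with an adjusted p of 0.032.

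Other junction and muscle lineage genes separated tumor 512 from the 2 other mouse tumors. Chrng, the fetal gamma subunit, held 0.517 and 1.19 normalised counts in tumors 1019 and 1023 and 1584 in tumor 512, and Chrnd, the delta subunit, 0, 5.93 and 1266. The muscle transcription factor Myog held 1.03, 16.0 and 10921 in the same order, and Myod1 0.517, 6.52 and 2831. In mouse muscle Chrnd held 51.8 to 70.9, so tumors 1019 and 1023 lay under it for Chrnd while above it for Chrna1. Both tumors held Chrnb1, the beta subunit, at 206 and 132, under the 618 to 1576 of muscle.

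Chrne, the epsilon subunit of the mature receptor, was low in every tumor of both species. Across the 12 Spalax muscle libraries it ranged from 11.8 to 262 normalised counts, and mouse controls held 201, 217 and 95. Spalax UIS muscle held 44.6, 11.8, 194 and 262 normalised counts in animals 600, 976, 2240 and 2230, and the tumors of the same animals held 3.63, 0.604, 0 and 1.80. The change was -3.15 in granuloma (log2, SE 1.08, limma adjusted p = 0.088), which did not pass, and Chrne fell by 7.08 in fibrosarcoma (SE 0.70, 0.0056). With 3 reads in the 2 fibrosarcomas, the ratio of UIS to IS was 247 with a 95% counting interval of 83.9 to 1204. Mouse UIS muscle held 119, 336 and 295, and the tumors 3.10, 1.19 and 6.84. Chrne fell by 5.79 in mouse (SE 0.67, limma adjusted p = 0.0022), and this call was kept in all 14 alternatives run. Thus tumor 512 held 1584 normalised counts of the gamma and 6.84 of the epsilon subunit.

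**Figure D3:**
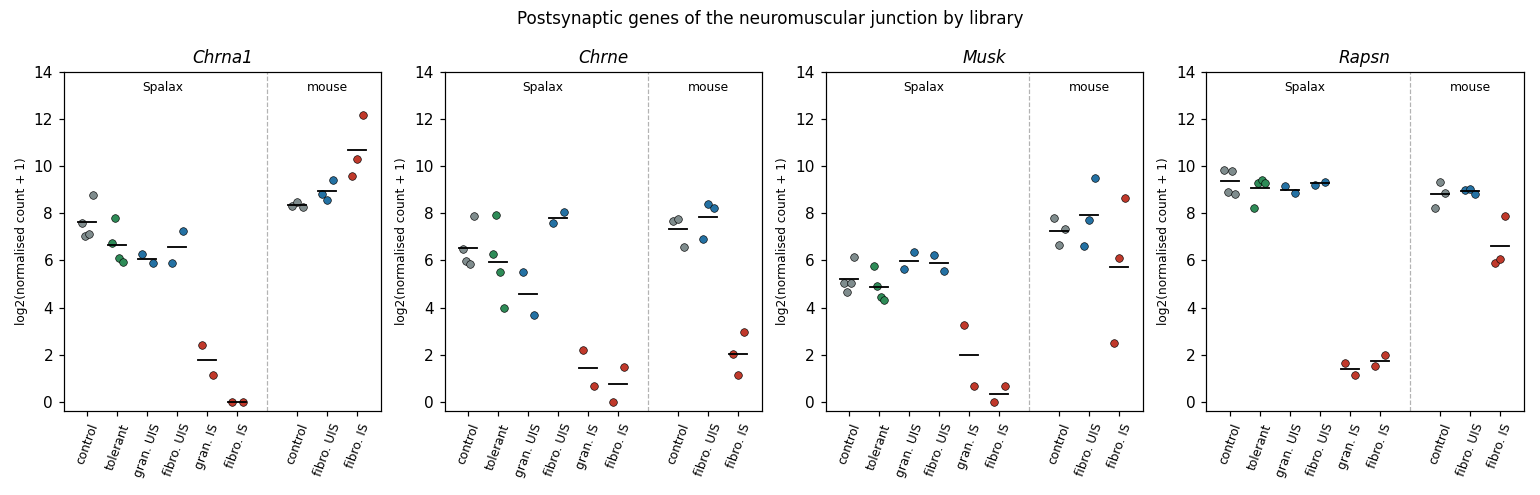
Level of Chrna1, Chrne, Musk and Rapsn in each library (points) with the group mean of the log2 values (bars), as log2 of the normalised count plus 1 on a linear axis. Both Spalax fibrosarcomas are at 0 for Chrna1, whereas the mouse tumors lie at 773 to 4628 normalised counts, above all mouse muscle libraries.

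Musk, the receptor kinase that agrin activates, held 24.3 to 69.6 normalised counts in Spalax controls and 53.3, 29.6, 21.2 and 18.8 in tolerant 2251, 2261, 2218 and 2375. UIS muscle stood above tolerant muscle by 1.08 (log2, SE 0.42, limma adjusted p = 0.88), with overlap. It held 48.2, 81.3, 75.2 and 45.5 normalised counts in UIS muscle of Spalax 600, 976, 2240 and 2230. Their tumors held 8.71, 0.604, 0 and 0.600. Musk fell by 5.56 in fibrosarcoma (log2, SE 0.60, limma adjusted p = 0.0064), where 1 read in the 2 tumors gives a ratio of UIS to IS of 203 with a 95% counting interval of 35.5 to 8087. In granuloma the change was -4.01 (SE 1.11, limma adjusted p = 0.053), over the threshold. Mouse Musk varied widely between animals, with 95.5, 210.4 and 717 in UIS muscle and 4.65, 67.0 and 396 in tumors 1019, 1023 and 512. Mouse controls held 221, 100.5 and 161. The tumor was lower than UIS in 3 of 3 animals, by 2.19 on average (SE 1.57, limma adjusted p = 0.29). UIS 512, the highest Musk library of the series, is also the one with the highest Trim63.

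Rapsn, which encodes the receptor-clustering protein rapsyn, fell in all 3 tumor types. It ranged from 301 to 919 normalised counts in the 12 Spalax muscle libraries and from 302 to 641 in the 6 of mouse. Spalax UIS muscle held 563, 463, 587 and 645 normalised counts in animals 600, 976, 2240 and 2230, and the tumors 2.18, 1.21, 1.84 and 3.00. The change was -7.59 in granuloma (log2, SE 0.68, limma adjusted p = 0.0060) and -7.51 in fibrosarcoma (SE 0.47, 0.0025). In granuloma 5 reads gave a ratio of UIS to IS of 311 with a 95% counting interval of 133 to 960, which covers counting error only. Mouse tumors kept more of it: UIS muscle held 504, 527 and 453 and tumors 1019, 1023 and 512 held 57.9, 65.8 and 234. Rapsn fell by 2.34 in mouse (SE 0.56, limma adjusted p = 0.017), a call that was lost with scaling by total reads (0.095), without UIS 1023 (0.057) and without IS 1023 (0.060).

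The granuloma calls of Chrna1, Rapsn and Ncam1 were each lost when any 1 of the 4 libraries was left out, with adjusted p between 0.060 and 0.19. The fibrosarcoma calls of Chrna1, Chrne, Musk and Rapsn were lost without UIS 2240 (0.15) or UIS 2230 (0.17) and were kept without either tumor library. In such fits a lone library is assumed to vary like the other group.

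Of 15 further junction genes 14 were tested in each tumor type. In Spalax fibrosarcoma 1 rose and 8 fell, with a median of -1.98 (log2), beside 17.4% and 19.0% of all genes. In granuloma 2 rose and 4 fell (median -1.03), beside 11.7% and 12.6%. In mouse 4 rose and 4 fell (median -0.49), beside 22.8% and 22.3%. Scn4a, the muscle sodium channel, changed by -8.19 (SE 0.30, limma adjusted p = 0.00080), -6.79 (SE 0.77, 0.0084) and -7.88 (SE 1.45, 0.0074) in that order. Nrg1, neuregulin, rose by 6.75 (SE 0.83, limma adjusted p = 0.0082), 4.31 (SE 0.78, 0.020) and 4.22 (SE 0.81, 0.0085). Dok7, the MuSK partner, fell by 4.47 in granuloma (SE 0.47, 0.0074). It held 493, 483 and 114 in mouse UIS muscle and 3.10, 7.71 and 756 in tumors 1019, 1023 and 512.

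Ncam1, the neural cell adhesion molecule, was higher in every tumor than in the muscle of the same animal in both species. Spalax UIS muscle held 164, 274, 543 and 651 normalised counts in animals 600, 976, 2240 and 2230, and their tumors 4279, 1867, 4176 and 961. Ncam1 rose by 3.73 in granuloma (log2, SE 0.54, limma adjusted p = 0.012). In fibrosarcoma the difference was 1.75 (SE 0.74, limma adjusted p = 0.13), which did not pass, though it did with scaling by total reads (0.044), DESeq2 (0.014) and without IS 2230 (0.012). Mouse UIS muscle held 252, 122 and 161 and tumors 1019, 1023 and 512 held 897, 2233 and 5087. The rise was 3.66 (SE 0.64, limma adjusted p = 0.0064) and was called in all 14 alternatives.

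Mouse controls held 87.4 to 110 of Ncam1. In Spalax muscle Ncam1 ranged from 87.1 in tolerant 2375 to 874 in tolerant 2251, both in 1 group. The controls held 216, 372, 119.7 and 316, inside that range. Ncam1 is also made by nerve, Schwann and muscle stem cells.

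S100b, a calcium-binding protein of Schwann cells that fat and cartilage cells also make, was lower in tumors. In Spalax UIS muscle of animals 600, 976, 2240 and 2230 it held 252, 1075, 278 and 463 normalised counts, and in their tumors 124, 103, 87.9 and 194. The change was -2.19 in granuloma (log2, SE 0.77, limma adjusted p = 0.093) and -1.45 in fibrosarcoma (SE 0.54, 0.10), and it passed in neither. DESeq2 (0.0070) and 1 model over all Spalax libraries (0.024) called it in granuloma, and none of 11 alternatives in fibrosarcoma. In mouse S100b fell by 4.24 (SE 0.94, limma adjusted p = 0.013), from 145, 171 and 18.7 in UIS muscle to 1.55, 5.93 and 3.16 in tumors 1019, 1023 and 512.

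Mouse S100b also stood lower in UIS muscle than in the 3 controls, which held 1017, 274 and 566. The difference was -2.77 (log2, SE 0.88, limma adjusted p = 0.44), and DESeq2 called it (0.042). Limma called 0 of 6 members tested between mouse control and UIS, beside 0% of 14792 genes, with 1621 genes at an unadjusted p under 0.05 and 342 called by DESeq2. Beside this, 8 adipocyte genes summed to 104849 to 173980 normalised counts in control and 25921 to 100241 in UIS libraries. The part of fat in the level of S100b was not tested. Chrna1 (0.58, SE 0.29, adjusted p = 0.48) and Ncam1 (0.75, SE 0.36, 0.48) were not called either.

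**Figure D4:**
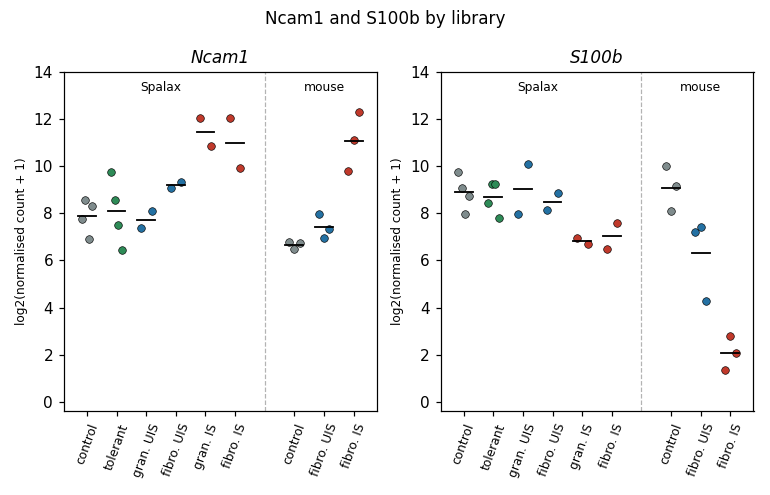
Level of Ncam1 and S100b in each library (points) with the group mean of the log2 values (bars), as log2 of the normalised count plus 1 on a linear axis. Ncam1 lies at 897 normalised counts or more in all 7 tumors, and S100b is at or under 5.93 in mouse tumors but at 87.9 to 194 in Spalax tumors.

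Schwann and myelin genes were compared with S100b in the tumors. Of 23, 14 were tested in granuloma, where 1 rose and 4 fell (median -0.99, log2), and 14 in Spalax fibrosarcoma, where 0 rose and 4 fell (median -1.14). In mouse 21 were tested, with 0 higher and 7 lower (median -1.96). Of all genes 12.6%, 19.0% and 22.3% were called lower in these comparisons. Sox10, a transcription factor made by Schwann cells though not by them alone, held at most 1.45 normalised counts in Spalax tumors. In mouse tumors 1019, 1023 and 512 it held 0, 3.56 and 21.6. Cdh19, an adhesion gene of Schwann cells, changed by -5.68 in granuloma (SE 0.93, limma adjusted p = 0.016) and -5.30 in Spalax fibrosarcoma (SE 0.94, 0.018). S100b held 87.9 normalised counts or more in Spalax tumors in which Sox10 was at or near 0. The cartilage list, whose cells also make S100b, summed to 136 to 681 in Spalax tumors and 37.4 to 41.2 in UIS muscle. In mouse tumors, with S100b at most at 5.93, it summed to 1258 to 1810. Most of that sum was Sox9 alone, at 1231, 1778 and 1295 in tumors 1019, 1023 and 512. Only 1 of the 7 list genes was tested in mouse IS against UIS, so the sum is no measure of cartilage. The part of cartilage cells in the level of S100b was not tested.

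**Figure D5:**
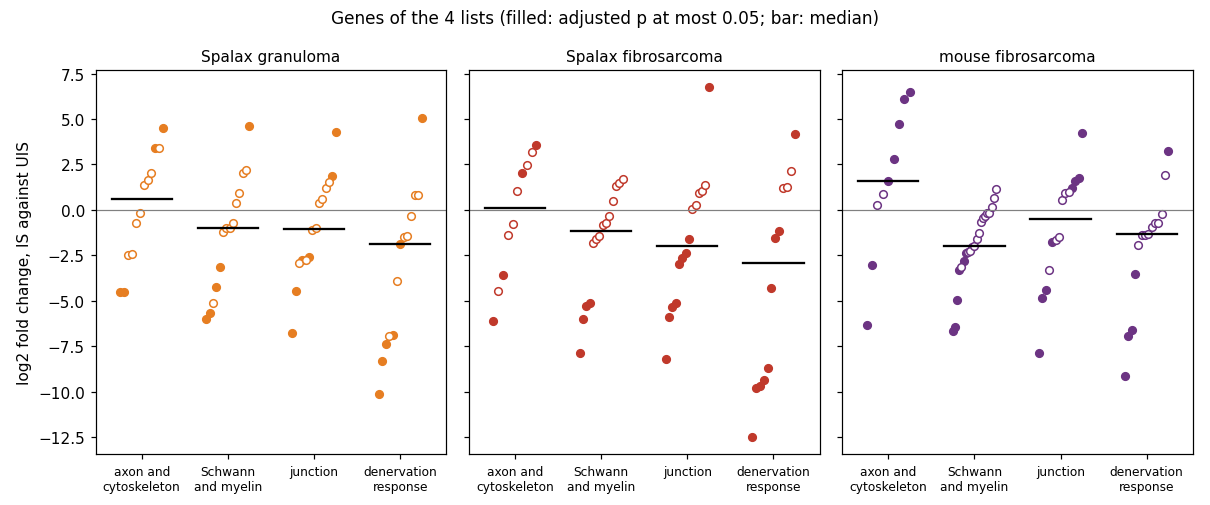
Log2 fold change of IS against UIS for each tested gene of 4 lists (points, filled for a limma adjusted p of at most 0.05) with the list median (bars), in Spalax granuloma, Spalax fibrosarcoma and mouse fibrosarcoma. The medians of the Schwann and myelin list are -0.99, -1.14 and -1.96.

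Genes known to respond to denervation were followed because Chrna1, Musk and Ncam1 are among the genes raised in muscle that has lost its nerve. Of 15, 13 were tested between Spalax control and UIS (median 0.60, log2) and between control and tolerant (median 0.34), with 0 called, and 14 between mouse control and UIS (median 0.82), also with 0 called. Cdkn1a, which stops the cell cycle, averaged 59.2 normalised counts in Spalax control and 1112 in UIS, most of it from UIS 976. In tumors 1 rose and 5 fell of 13 in granuloma, 1 rose and 8 fell of 12 in Spalax fibrosarcoma, and 1 rose and 4 fell of 14 in mouse, beside 12.6%, 19.0% and 22.3% of all genes called lower. Myog fell by 9.66 in Spalax fibrosarcoma (SE 0.47, limma adjusted p = 0.0014), with both tumors at 0, and Trim63 fell by 9.15 in mouse (SE 2.22, 0.017).

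The IS against UIS difference was compared between fibrosarcoma and granuloma within Spalax. Limma called 0 of 8 members, beside 0% of 15584 genes, with 766 genes at an unadjusted p under 0.05, 0 called by edgeR and 88 by DESeq2. The largest member difference was that of Chrne, -3.93 (log2, SE 1.39, limma adjusted p = 0.95).

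Between species the IS against UIS differences of Spalax and mouse fibrosarcoma were compared gene by gene, each fold change being made within its own table, over 11085 genes matched by symbol. Of 6 members tested, 2 were called lower in Spalax, beside 1.94% of all genes, and 0 higher, beside 2.01%. Chrna1 differed by -8.33 (log2, SE 1.04, limma adjusted p = 0.0098) and Rapsn by -5.17 (SE 0.83, 0.021). The 12 muscle fibre genes tested had a median difference of -3.99 here, with 0 called, beside -0.02 over all genes. The direction is thus not particular to these 2 members, and the part of muscle fibres in it was not tested. With the animal as a block Chrna1 had an adjusted p of 0.049 and Rapsn one of 0.067, and over all genes 38 were called in place of 438. Both calls were lost without Spalax UIS 2240 (0.063 and 0.11) and without UIS 2230 (0.081 and 0.12), and that of Rapsn also without mouse UIS 1023 (0.065). Scaling by total reads changed the calls over all genes from 223 higher and 215 lower to 144 and 280 and kept both members. For Chrne (-1.29, SE 1.12), Musk (-3.36, SE 2.19), Ncam1 (-1.91, SE 1.09) and S100b (2.79, SE 1.35) the limma adjusted p was 0.27 to 0.55. Prph, Nefl and Nefm did not pass the filter in both species, so these genes were not compared between species.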

How the data were processed

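The series holds 25 RNA-seq libraries. Per the labels and the study's methods, single-end reads of strand-specific libraries were trimmed, aligned with TopHat to a published Spalax genome or to the mouse genome (GRCm38 in the submitters' processing notes), and counted with HTSeq. DESeq is also named in those notes. Each species has 1 deposited table with a signal per gene and library: a read count scaled by the authors with a constant of that library, as the values show. In 100% of the values whole reads were recovered by division, within 0.001. In names with a comma the comma was read as t, and Spalax values, also those of the column with other content in shifted rows, were read from the line end as deposited.

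The main test was limma 3.58.1 (R 4.3.3; trend) on log2(value + 1), which understates changes of low genes, over genes that reached 10 in a number of libraries equal to the size of the smaller group. Benjamini-Hochberg adjustment ran over all genes tested, with a threshold of 0.05. The study used edgeR and DESeq2 on counts, so edgeR 4.0.16 and DESeq2 1.42.0 were run on the recovered reads as alternatives. The fit was tested on simulated data. Some items are not reported here. Members and lists were chosen with earlier results of these data known. Named genes are the 9 members, per list and comparison at most 4 genes with the largest changes among those called, and the 5 genes nearest to Prph. Genes named outside this rule were chosen after their values were seen (subunits, lineage and cell type markers).

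The pairing of IS and UIS comes from the animal number in the labels. After subtraction of the group means, the 2 libraries of an animal correlated at 0.0092 in granuloma, -0.0019 in Spalax fibrosarcoma and 0.125, 0.047 and 0.178 in mouse. Counting intervals (exact, 95%) and the floor of 3 reads cover counting error only. Plots were made in Python 3.11.15 (matplotlib 3.10.9). Alternatives were another pseudocount, no filter, scaling by total reads, the count tests, 1 model over all libraries of a species, the animal as a block and leaving out libraries.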

Additional observations from a re-analysis of the deposited data

Results flagged for a closer look

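In groups of 4 Spalax libraries, 1 library far from the other 3 was found in 5 of 26 groups examined, where chance gives about 1 in 20. UIS 2230 held 73.9 normalised counts of Prph, against 33.8 in the next library. Control 1075 held 6.29 of Nefl, control 1042 held 1.10 of Nefm and tolerant 2251 held 2.25 of Nefm, all at levels of a few reads. For both flags of Nefm the next library was at 0, so any library with a read would have been flagged. Tolerant 2251 held 301 of Rapsn, against 624 in the next library.

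The IS against UIS difference was unequal between species by the interaction term of limma for Chrna1, with -8.33 on the log2 scale (adjusted p = 0.0098), and for Rapsn, with -5.17 (adjusted p = 0.021).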

How the results depend on the processing

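Counts of members called, out of 9, were within 1.5 times the reported count in 53 of 59 alternatives other than leaving out 1 library. DESeq2 called 1 member between Spalax control and UIS, which was Prph on the contrast it was chosen on and so supports nothing, and 1 between mouse control and UIS (S100b). It called 7 in granuloma IS against UIS and 4 between species. With 1 model over all Spalax libraries 7 members were called in granuloma. Both granuloma counts of 7 include Prph. It was chosen on its low UIS values, so its call supports nothing there either. With the replicate block 1 member was called between species, and the block changed no other call except that of mouse Chrna1. Leaving out 1 library gave 0 to 0 called members in granuloma, 0 to 6 in Spalax fibrosarcoma, 3 to 6 in mouse fibrosarcoma and 0 to 3 between species, and 0 to 0 in the other 5 comparisons. None of the 258 fold changes under other settings and 230 with 1 library left out, all of members printed here, changed sign. Some small fold changes that are not printed did change sign. That of Chrne ran from -0.95 to 0.50 between Spalax control and UIS, and that of Ncam1 from -0.37 to 0.73 between control and tolerant. Over all genes DESeq2 called 516 between Spalax control and UIS and 60 between control and tolerant, where limma called 0, and 38 between tolerant and UIS, where limma called 1; 1711 between species, where limma called 438, and 5383 in granuloma, where limma called 3581 and 1 model over all libraries 6314. Leaving out both libraries of mouse animal 512, chosen after seeing the data, gave 670 genes between species and 7891 in mouse fibrosarcoma, against 6870. Depth limits members at a few reads, such as Nefl and Nefm in muscle.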
